A study of Arabidopsis thaliana with 3 samples.

Results

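The genes described here encode the calcium-regulated protein kinases of Arabidopsis thaliana. Members were the array loci whose probe description names a calcium-dependent protein kinase or a CBL-interacting protein kinase. This gave 70 of the 25665 loci on the array. The wording of the description and no measured ratio decided membership, but the rule was set with earlier results of these data known. They comprise 32 calcium-dependent protein kinases (CPKs), 25 CBL-interacting protein kinases (CIPKs), 8 CPK-related kinases (CRKs) and 5 further loci whose description carries the same words. Each locus was read from its brightest probe. The description missed 3 genes of these families, CPK7, CPK9 and CIPK26, whose values are given separately.

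RNA from whole seedlings of the tdt-1 mutant was hybridised together with RNA from wild-type seedlings on each of 3 two-colour arrays, 1 for each biological replicate. Both genotypes were harvested at 3 days and grown on MS agar in constant light, and the labels give neither the accession of the wild type nor how the lines were crossed. The mutant carried Cy5 on replicates 1 and 2 and Cy3 on replicate 3. The labels do not say which gene is affected. Published trident mutants carry lesions in DCP2, the enzyme that removes the cap of mRNAs before their decay. The DCP2 probe stood at −0.44, −0.46 and −0.96 on the log2 scale, a mean of −0.62 that missed the threshold (limma adjusted p = 0.0629).

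Calcium signals in plants are read by several kinds of kinase. A CPK is a kinase and a sensor in 1 protein: a calmodulin-like domain with EF hands binds calcium and releases the kinase from its own inhibition. A CIPK binds no calcium and is instead recruited and activated by a calcineurin B-like protein (CBL), a separate EF-hand sensor that also takes the complex to a membrane. CRKs resemble CPKs in their kinase domain but carry degenerate EF hands. In seedlings these kinases are known for control of potassium, nitrate, ammonium, sodium and proton transport, of responses to the hormone abscisic acid, and of immune signalling.

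The spots of 62 members stood well above background in at least 1 genotype on every array, and 59 of these did so in both genotypes. Values below, unless called signals, are ratios on the log2 scale, positive where tdt-1 was higher than wild type. A gene was said to rise or fall where limma's adjusted p, over the 20484 loci tested, was under 0.05, and errors are SDs over the 3 arrays. Scanner output has no read depth, and the 3 arrays limit the precision of each mean. Replicates 1 and 2 shared a scan day and a version of the extraction software. Dye, software version and scan day all changed together on replicate 3, so their effects cannot be told apart.

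Of the 62 members tested, 4 rose and 3 fell in tdt-1, which is 11.3% of them, against 13.3% of all loci tested. Rises were called for 7.36% of all loci and falls for 5.97%. Those that rose were CIPK11, CIPK25, CIPK5 and CPK15. CIPK1, CPK11 and AT3G49370 fell. The remaining 55 members did not pass the test. The share of members called was therefore near that of the array as a whole. At an unadjusted p under 0.05 the count was 23 of 62, where 35.1% of all loci reached that level. These counts rest on how the arrays are combined. With replicates 1 and 2, which share dye and scan day, averaged, limma called 0 members and 0.21% of all loci. At an unadjusted p under 0.05 there were then 8 of 62 members and 3731 of 20484 loci. With median centring limma called 0 members and 0.0049% of all loci, with 10 members and 3635 loci unadjusted. A dye term gave 41 members, where 64.4% of all loci were called.

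The member means ran from −0.86 to 1.15. The median of the member means was 0.13, beside 0.024 for all loci. Of the member means, 39 lay above 0 and 23 below, and of the means of all loci 10840 lay above 0 and 9644 below. The member medians on replicates 1, 2 and 3 were 0.21, 0.12 and −0.048, beside 0.045, 0.035 and −0.0071 for all loci. The median distance from 0, without regard to sign, was 0.27 for members and 0.25 for all loci. With the processing used for these values, CIPK11 was the 1 member whose mean passed 2-fold in either direction, as 5.83% of all loci did. Which members passed 2-fold depended on the processing. With the scanner's own ratios CIPK25 and CPK15 also did, at 1.122 and 1.006. With median centring CIPK5 did so too, at 1.141. In bulk RNA from whole seedlings, fewer cells of a type and less RNA per cell cannot be told apart.

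**Figure D1:**
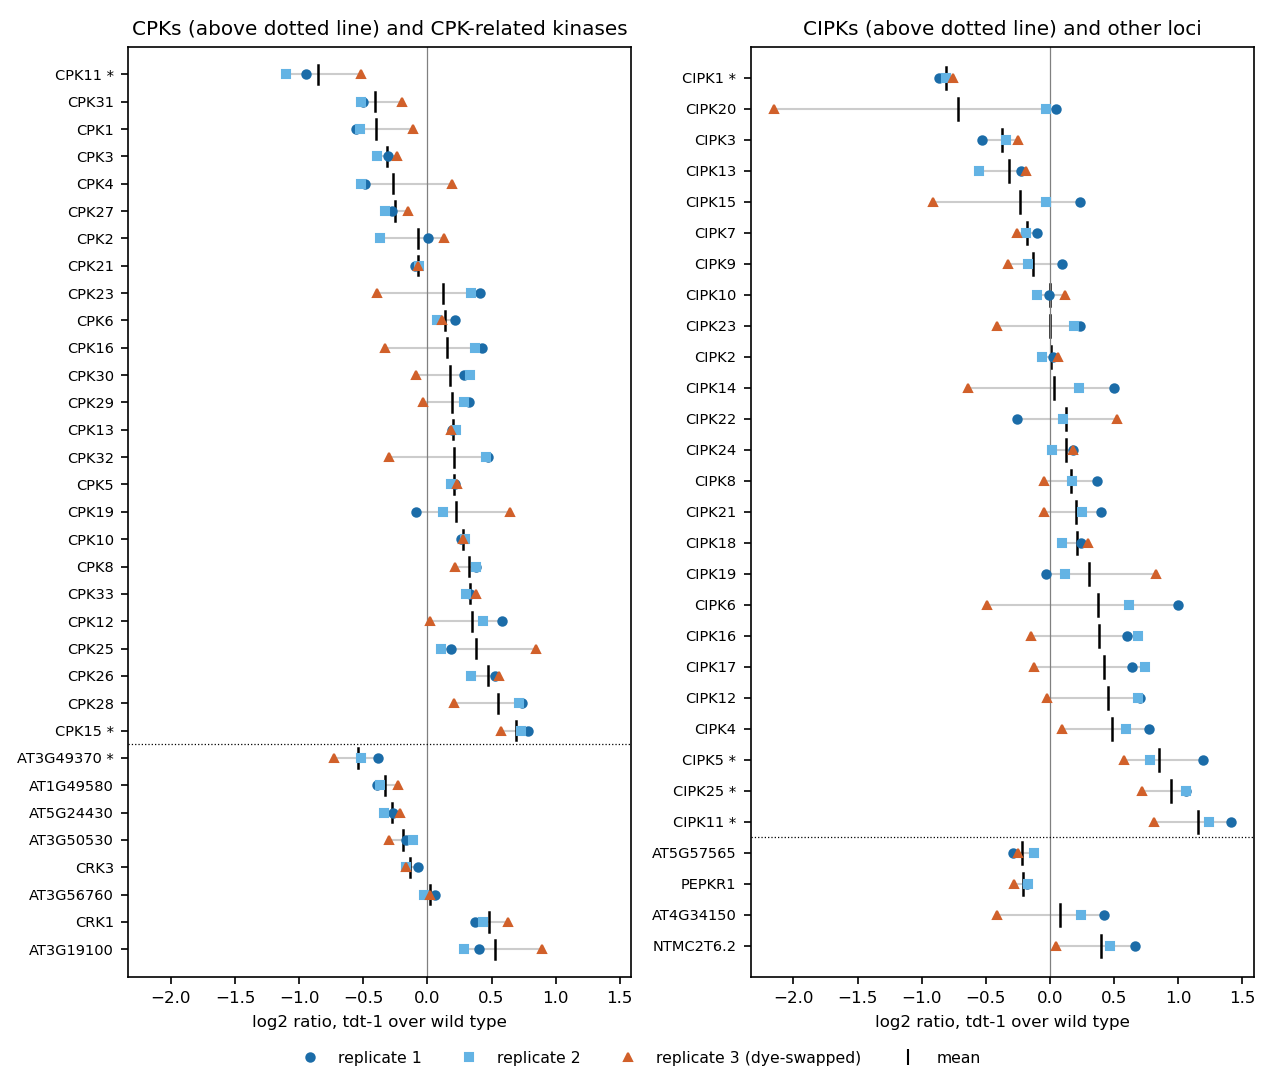
Log2 ratio of tdt-1 over wild type (horizontal axis) for each of the 62 tested members, with 1 point per array and a bar at the mean. Asterisks mark the 7 members past the test. The 3 points of each of these 7 lie on 1 side of 0, while the replicate 3 point of CIPK20 lies at −2.15, apart from its other points near 0.

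All 25 CIPKs were above background, and they held 4 of the 7 calls: 3 rose, 1 fell and 21 did not pass the test. CIPK11, known as PKS5 and as an inhibitor of the plasma membrane proton pump AHA2, had a normalized log2 signal of 9.24 in wild type and 10.65 in tdt-1 on replicate 1. On replicate 2 the signals were 9.77 and 11.01, and on replicate 3 they were 12.87 and 13.68. The mutant was the higher of the pair on every array, by 1.41, 1.24 and 0.81, with the smallest step on the dye-swapped array. The mean of 1.15 ± 0.31 corresponds to 2.22-fold (limma adjusted p = 0.0253).

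CIPK25 had wild-type signals of 7.61, 7.69 and 10.93 and tdt-1 signals of 8.67, 8.75 and 11.65 on replicates 1, 2 and 3. It stood higher in tdt-1 on all 3 arrays, by 1.06, 1.06 and 0.72, a mean of 0.95 ± 0.20 or 1.93-fold (limma adjusted p = 0.0232). CIPK5, a kinase reported to act with CBL1 on the outward potassium channel GORK, went from 8.93, 9.34 and 13.10 in wild type to 10.12, 10.12 and 13.67 in tdt-1. Its ratios of 1.19, 0.78 and 0.58 kept 1 sign and were highest on replicate 1. The mean was 0.85 ± 0.31, which is 1.80-fold (limma adjusted p = 0.0402).

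CIPK1, a partner of CBL1 and CBL9 with known roles in abscisic acid and osmotic responses, was the CIPK that fell. Its signals were 10.39, 10.74 and 14.12 in wild type and 9.52, 9.93 and 13.37 in tdt-1. The ratios of −0.87, −0.81 and −0.76 were close to each other, and the mean of −0.81 ± 0.06 had the smallest spread of the 7 calls (limma adjusted p = 0.0204). Signals on replicate 3 were higher for both genotypes of all 7 genes, which is why levels are read within an array.

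**Figure D2:**
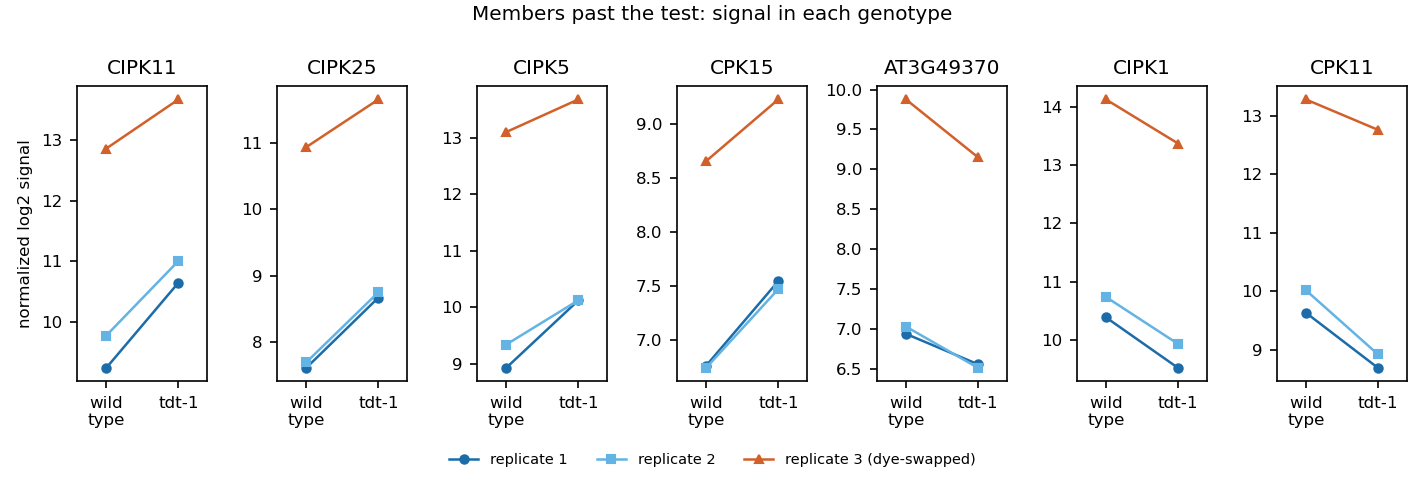
Normalized log2 signal (vertical axis, with its own range and not starting at 0 in each panel) in wild type and tdt-1 for the 7 members past the test, 1 line per array. All 3 lines rise toward tdt-1 for CIPK11, CIPK25, CIPK5 and CPK15 and fall for AT3G49370, CIPK1 and CPK11, and the replicate 3 line lies highest in every panel.

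CIPK23, CIPK24, CIPK8 and CIPK9, which regulate ion transport or ion responses, did not pass the test. CIPK23, which activates the potassium channel AKT1 and phosphorylates the nitrate transceptor NRT1.1, stood at 0.23, 0.19 and −0.41, a mean of 0.00 ± 0.36. CIPK24, better known as SOS2 and the activator of the sodium exchanger SOS1, gave 0.18, 0.02 and 0.18 with a mean of 0.12 ± 0.09. CIPK8 and CIPK9, which act in nitrate and potassium responses, had means of 0.16 ± 0.21 and −0.14 ± 0.21. For CIPK23, CIPK8 and CIPK9 the sign on replicate 3 was not that of replicate 1, whereas the 3 values of CIPK24 all lay above 0.

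Among CIPKs with reported roles in abscisic acid or stress responses, CIPK3 gave −0.53, −0.34 and −0.25, a mean of −0.38 ± 0.14 that missed the threshold (limma adjusted p = 0.0812). It is the member with a second probe, which read −0.39, −0.24 and −0.39 on the 3 arrays, so both probes lay below 0 throughout. CIPK21 stood at 0.40, 0.25 and −0.05, with a mean of 0.20 ± 0.22. CIPK15, known as PKS3 and reported as a negative regulator of abscisic acid responses, read 0.24, −0.03 and −0.91, and its mean of −0.24 ± 0.60 was smaller than its spread. CIPK6, which with CBL4 brings the potassium channel AKT2 to the plasma membrane, went from 0.998 and 0.62 on replicates 1 and 2 to −0.49 on replicate 3 (0.37 ± 0.77, limma adjusted p = 0.451).

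Several other CIPKs were high on the first arrays and near 0 on the dye-swapped one. CIPK4 read 0.77, 0.59 and 0.09 and had a mean of 0.48 ± 0.35 (limma adjusted p = 0.120). CIPK12 gave 0.70, 0.69 and −0.03, CIPK17 gave 0.64, 0.74 and −0.12, and CIPK16 gave 0.60, 0.69 and −0.15. Their means of 0.45, 0.42 and 0.38 were close to or below their SDs of 0.42, 0.47 and 0.46. The opposite order was seen in CIPK19, at −0.03, 0.11 and 0.82, and in CIPK22, at −0.26, 0.10 and 0.52. CIPK20 differed most between arrays of all members: it read 0.04 and −0.04 on replicates 1 and 2 and −2.15 on replicate 3, a mean of −0.72 ± 1.25 (limma adjusted p = 0.367). CIPK19 and CIPK20 are adjacent genes on chromosome 5 in the reference annotation, and they stood on opposite sides of 0 on replicate 3.

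The last CIPKs had small means. CIPK18 gave 0.24, 0.10 and 0.29, and its mean of 0.21 ± 0.10 did not pass. CIPK13 read −0.23, −0.55 and −0.18, and CIPK7 read −0.10, −0.18 and −0.26, so both lay below 0 on each array without passing the test. CIPK14, the chromosome 5 neighbour of CIPK15, read 0.50, 0.23 and −0.64 and, like CIPK15, was lowest on replicate 3. CIPK2 and CIPK10 had means close to 0, with SDs of 0.06 and 0.11. CIPK26, which the selection missed, read 0.80, 0.87 and 0.15, a mean of 0.61 ± 0.40 (limma adjusted p = 0.0967). Over the 25 CIPKs tested, the median of the means was 0.12, and the medians on replicates 1, 2 and 3 were 0.24, 0.11 and −0.050.

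Of the 32 CPKs, 25 were tested, with 1 that rose, 1 that fell and 23 that did not pass. That is 8% of the tested CPKs, and 16% of the CIPKs were called, beside 13.3% of all loci. The families were not compared by a test. The median of the CPK means was 0.19, and the medians on the 3 arrays were 0.21, 0.22 and 0.11. CPKs fall into subgroups I to IV by sequence, and the results are given in that order.

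In subgroup I, 9 of 10 genes were tested and 1 passed, which is 11.1% beside 13.3% of all loci. CPK11, which with its close relative CPK4 is known as a positive regulator of abscisic acid signalling and phosphorylates the transcription factors ABF1 and ABF4, had signals of 9.63, 10.02 and 13.29 in wild type and 8.69, 8.92 and 12.76 in tdt-1. It was lower in the mutant on every array, at −0.95, −1.10 and −0.52, with a mean of −0.86 ± 0.30 or 1.81-fold (limma adjusted p = 0.0379). CPK4 read −0.49 and −0.52 on replicates 1 and 2 but 0.19 on replicate 3, and its mean of −0.27 ± 0.40 was within its spread. CPK12, another relative, which is reported to act negatively in abscisic acid signalling, was on the other side of 0 at 0.58, 0.44 and 0.02 (0.35 ± 0.29). CPK11 and CPK4 are close in sequence, and how far a probe of 1 binds RNA of the other was not measured.

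CPK5 and CPK6, both of subgroup I, varied little between arrays. CPK5, which phosphorylates the NADPH oxidase RBOHD, gave 0.21, 0.18 and 0.23, and CPK6, with roles in immunity and in guard-cell anion channels, gave 0.21, 0.08 and 0.11. Both lay above 0 on all arrays, with means of 0.21 ± 0.02 and 0.13 ± 0.07 that did not pass the test. CPK26 stood at 0.53, 0.34 and 0.56, and its mean of 0.47 ± 0.12 lay just outside the threshold (limma adjusted p = 0.0501). CPK1 was lower in tdt-1 on each array, at −0.56, −0.53 and −0.11 (−0.40 ± 0.25), while CPK2, which is closely related to CPK1, gave 0.01, −0.37 and 0.13. CPK25 read 0.18, 0.11 and 0.84, its highest value being on replicate 3.

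In subgroup II, 9 of 12 genes were tested, and CPK15 was the 1 that passed (11.1%, beside 13.3% of all loci). The wild-type signals of CPK15 were 6.77, 6.75 and 8.65, and its tdt-1 signals were 7.55, 7.47 and 9.22. The ratios of 0.78, 0.73 and 0.57 were alike on the 3 arrays, and the mean of 0.69 ± 0.11 is 1.62-fold (limma adjusted p = 0.0276). With the scanner's own ratios the CPK15 mean was 1.006 (limma adjusted p = 0.0332). CPK33 also varied little, at 0.33, 0.30 and 0.37, but its mean of 0.34 ± 0.04 did not pass (limma adjusted p = 0.0727). CPK3, CPK21 and CPK23 are known to activate the guard-cell anion channel SLAC1. CPK3 gave −0.31, −0.39 and −0.24 (−0.31 ± 0.08), CPK21 gave −0.09, −0.06 and −0.07, and CPK23 gave 0.41, 0.34 and −0.39. These 3 kinases did not share a direction.

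CPK31, CPK27, CPK22 and CPK21 lie next to each other on chromosome 4 in the reference annotation, and CPK23 follows with 1 gene between. CPK31 read −0.50, −0.52 and −0.20, and CPK27 read −0.28, −0.33 and −0.15. Their means of −0.41 ± 0.18 and −0.25 ± 0.09 did not pass the test. CPK22 was not tested, and the means of CPK21 and CPK23 were −0.08 and 0.12. The means of CPK31, CPK27 and CPK21 thus lay below 0 and that of CPK23 above it, with every one short of the threshold. The CPK23 mean was within its SD of 0.44, and its wild-type spot was well above background on only 2 arrays. On replicate 3 CPK23, at −0.39, lay below CPK31, CPK27 and CPK21, so no order along the cluster held on every array. Such neighbouring copies can share probe signal, which these arrays do not separate. The subgroup also holds CPK19, at −0.09, 0.12 and 0.64, and CPK29, at 0.33, 0.28 and −0.04. CPK9, which the selection missed, gave −0.56, −0.60 and −0.03.

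In subgroup III, 5 of 7 genes were tested, and none passed the test with limma. An unadjusted p under 0.05 was reached by 2 of the 5 and by 35.1% of all loci. All 5 means lay above 0, from 0.18 to 0.32, as did 10840 of the 20484 means of all loci. CPK10, CPK30 and CPK32 are known as nitrate-signalling kinases that phosphorylate the transcription factor NLP7. CPK10 gave 0.26, 0.29 and 0.27, the closest agreement among the tested members, with a mean of 0.28 ± 0.01 (limma adjusted p = 0.0997). CPK30 read 0.29, 0.33 and −0.09, and CPK32 read 0.47, 0.45 and −0.30, so both changed sign on replicate 3. CPK8, which phosphorylates the catalase CAT3, stood at 0.38, 0.38 and 0.21 (0.32 ± 0.10), and CPK13 at 0.19, 0.22 and 0.18. CPK7, not among the members, stood below 0 on each array, at −0.24, −0.42 and −0.19.

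In subgroup IV, 2 of 3 genes were tested. CPK28, which promotes turnover of the immune kinase BIK1 and acts in stem elongation, gave 0.74, 0.72 and 0.21, a mean of 0.55 ± 0.30 that did not pass (limma adjusted p = 0.0793). CPK16 read 0.42 and 0.37 on replicates 1 and 2 and −0.33 on replicate 3.

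All 8 CRKs were tested, with 1 that fell and 7 that did not pass. That is 12.5% called, beside 13.3% of all loci. AT3G49370 had wild-type signals of 6.94, 7.03 and 9.88 and tdt-1 signals of 6.56, 6.51 and 9.15. It was lower in tdt-1 on each array, at −0.38, −0.52 and −0.73, and its largest step was on replicate 3. The mean of −0.54 ± 0.17, which is 1.46-fold, lay just inside the threshold (limma adjusted p = 0.0490). The scanner's own ratios put it at −0.9989 (limma adjusted p = 0.0301). CRK1 gave 0.37, 0.43 and 0.63 and lay just outside it at 0.48 ± 0.13 (limma adjusted p = 0.0517).

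AT3G19100 stood at 0.40, 0.28 and 0.89, a mean of 0.53 ± 0.32 (limma adjusted p = 0.0936). AT1G49580 read −0.39, −0.37 and −0.23, AT5G24430 read −0.27, −0.34 and −0.22, and AT3G50530 read −0.17, −0.11 and −0.30. CRK3 had a mean of −0.14 ± 0.05 and AT3G56760 a mean of 0.02 ± 0.04. The sign was the same on all 3 arrays for 7 of the 8 CRKs, the exception being AT3G56760, and 58.9% of all loci kept 1 sign. The median CRK mean was −0.17. CRK here stands for CPK-related kinase, not for the receptor kinases that share the abbreviation. The probe descriptions call these loci putative calcium-dependent protein kinases, and those without a numbered name in the reference table are given by locus.

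Of the 5 loci caught by the wording of their description, 4 were tested and none passed the test with limma or had an unadjusted p under 0.05. PEPKR1, a kinase related to phosphoenolpyruvate carboxylase kinase, gave −0.18, −0.17 and −0.28. NTMC2T6.2 and AT4G34150, which encode C2-domain proteins rather than kinases, gave 0.67, 0.47 and 0.05 and 0.42, 0.24 and −0.42. AT5G57565 read −0.29, −0.13 and −0.25.

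The 8 members that were not tested were CPK14, CPK17, CPK18, CPK20, CPK22, CPK24, CPK34 and AT2G02060, a locus annotated as myb-like. The spots of CPK20 and CPK34 were not well above background on any array in either genotype. CPK17 was above it in wild type on 1 array, CPK14 and CPK24 in each genotype on 1 array, and CPK18 and CPK22 in tdt-1 on 1 array and in wild type on 2. CPK17, CPK34, CPK14 and CPK24 are known as pollen and pollen-tube kinases. The pollen markers VGD1 and VGDH1 were likewise not tested in these seedlings, and VGD1 was not above background on any array.

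The kinases did not behave alike across arrays. The ratio was above 0 on replicates 1 and 2 and below 0 on replicate 3 for 14 of the 62 members, where 16.7% of all loci showed that order. The reverse order was seen in 2 members and in 12.3% of all loci. All 3 ratios lay above 0 for 20 members (31.4% of all loci) and below 0 for 17 (27.5% of all loci). By family the first order held for 8 of 25 CIPKs, 5 of 25 CPKs and none of the CRKs. The sign was kept on all 3 arrays by 10 CIPKs, which is 40% of them, and by 17 CPKs, which is 68%. Pearson's r across the 62 members was 0.95 between replicates 1 and 2, 0.34 between 1 and 3 and 0.41 between 2 and 3, and across all loci it was 0.94, 0.53 and 0.57. These are correlations across genes, which are not independent replicates.

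The median SD over arrays was 0.31 for CIPKs, 0.20 for CPKs, 0.091 for CRKs and 0.21 for all loci. All 7 calls were lost when replicate 1 or replicate 2 was left out, though all 7 ratios kept their direction. Of all loci, 0.96% were called without replicate 1 and 0.54% without replicate 2, beside 13.3% with all 3 arrays. With replicate 3 left out, 30 members passed as higher and 13 as lower, among them all 7. That is 69.4% of the tested members, against 60.9% of all loci in the same fit.

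**Figure D3:**
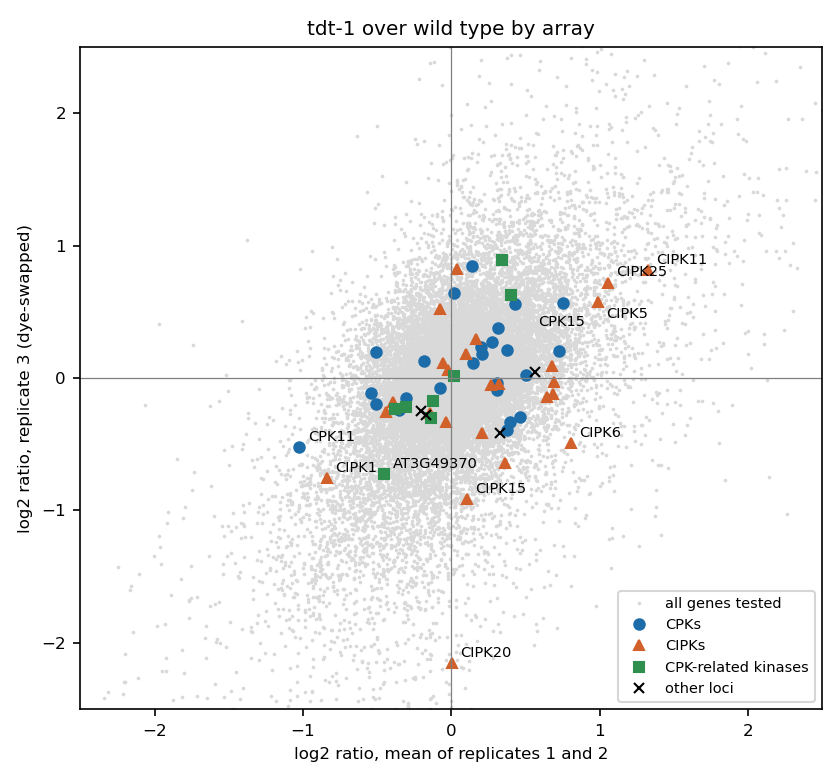
Log2 ratio of tdt-1 over wild type on replicate 3 (vertical axis) against the mean of replicates 1 and 2 (horizontal axis), for the tested members in colour and all tested loci in grey. The axes end at 2.5 in each direction and leave out 247 loci, none of them a member. CIPK11, CIPK25 and CIPK5 lie at the upper right, CPK11 and CIPK1 at the lower left, and CIPK20 far below the others at −2.15 on replicate 3.

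The CBL proteins are the calcium sensors that CIPKs bind. Of the 10 CBL genes, 9 were tested, 1 rose and 1 fell, where 13.3% of all loci were called. CBL1, a plasma membrane sensor that recruits CIPK1, CIPK5 and CIPK23 among others, gave 0.67, 0.65 and 0.99 and rose by a mean of 0.77 ± 0.19 or 1.71-fold (limma adjusted p = 0.0309). CBL10, which acts with SOS2 in shoots under salt, gave −0.79, −0.71 and −1.51 and fell, with a mean of −1.003 ± 0.44 (limma adjusted p = 0.0466). The CBL10 call was lost under 5 of 15 alternatives and the CBL1 call under 4. CBL1 and its partner CIPK5 were thus higher and its partner CIPK1 lower, each on all 3 arrays.

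The remaining CBL genes did not pass the test. CBL8 stood at 0.55, 0.68 and 1.96, a mean of 1.07 ± 0.78 (limma adjusted p = 0.0993) whose largest value came from replicate 3. CBL9, the closest relative of CBL1, gave −0.38, −0.34 and −0.02, and CBL4, which is SOS3, gave −0.01, 0.08 and 0.34. The median over the 9 genes was 0.14. CBL5 was not above background on all arrays in either genotype.

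Of 19 genes for proteins that CPKs or CIPKs are reported to phosphorylate or regulate, 4 fell, none rose in the limma test and 15 did not pass, where 5.97% of all loci fell and 7.36% rose. This list, like the others, was chosen with earlier results of these data known. Its counts are therefore a description, and an excess over all loci was not tested. The median was 0.0016, and 8 had an unadjusted p under 0.05, as did 35.1% of all loci. AHA2, the proton pump that CIPK11 inhibits, gave −0.99, −1.01 and −0.74, a mean of −0.91 ± 0.15 (limma adjusted p = 0.0220). AKT1, the root potassium channel that CIPK23 activates, gave −0.71, −0.85 and −0.67 and fell by a mean of 0.74 on the log2 scale (limma adjusted p = 0.0241). AMT1;1, an ammonium transporter inhibited by CIPK23, gave −0.44, −0.60 and −0.43 (−0.49 ± 0.10, limma adjusted p = 0.0441). The call for AMT1;1 was lost under 8 of 15 alternatives, and its mean was −0.18 with median centring. All 3 lay below 0 on each array, while CIPK23 itself was at 0.00 ± 0.36.

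KAT1, a potassium inward channel of guard cells, gave −1.19, −0.95 and −0.94 and fell by a mean of 1.03 on the log2 scale (limma adjusted p = 0.0195). FAMA, a guard-cell regulator, also fell, at −0.78, −0.49 and −0.55 (limma adjusted p = 0.0380), the 1 call among 6 shoot markers. The 6 shoot markers had medians of −0.30, −0.36 and −1.29 on the 3 arrays, and their summed log2 signal ran from 17.1 to 18.1 in tdt-1 and from 17.2 to 20.0 in wild type. RBCS1A and CAB3 were saturated on all arrays. The means of 5 shoot markers lay below 0. LOX2 had a mean above 0 and read 1.70, 1.99 and −0.77 (0.97 ± 1.52), without passing the test. Another guard-cell channel, SLAC1, read 0.51, 0.40 and −0.39 and did not pass. KAT2, also on the target list, read 0.12, 0.51 and −0.13 and did not pass either. The part of guard-cell number or shoot share in these values was not tested.

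The other targets did not pass the test. The abscisic acid factors ABF1, ABF3 and ABF4 had means of 0.71 ± 0.41, 0.52 ± 0.43 and 0.41 ± 0.13, all above 0 on each array, and ABF2 had a mean of 0.00 ± 0.13. NRT1.1 stood at −0.41, −0.28 and −1.29 and NLP7 at −0.13, −0.19 and −0.78, both lowest on replicate 3. SOS1, RBOHD, RBOHF, AKT2, HAK5 and BIK1 had means between −0.05 and 0.10, with signs that differed between arrays.

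Among 25 genes for calcium channels, pumps and exchangers, 24 were tested, 2 rose and 1 fell. That is 12.5% of those tested, beside 13.3% of all loci, and the median was 0.047. CAX3, a vacuolar calcium and proton exchanger, gave 1.35, 1.30 and 0.91, a mean of 1.18 ± 0.24 or 2.27-fold (limma adjusted p = 0.0207). ACA8, a plasma membrane calcium pump, gave 0.56, 0.40 and 0.42 and lay near the threshold (0.46 ± 0.09, limma adjusted p = 0.0478). The call for ACA8 was lost under 8 of 15 alternatives, and its mean was 0.73 with median centring. CNGC2, a cyclic-nucleotide-gated channel, gave −0.58, −0.74 and −0.92 and fell by a mean of 0.75 on the log2 scale (limma adjusted p = 0.0295). CAX1, the relative of CAX3, stood on the other side of 0 at −0.76, −0.35 and −0.41 without passing the test (limma adjusted p = 0.0673).

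The SnRK2 and SnRK1 kinases are relatives of the CIPKs that do not bind CBL proteins. None of the 12 passed the limma test, where 13.3% of all loci did. An unadjusted p under 0.05 was reached by 2 of the 12 and by 35.1% of all loci. OST1, the kinase central to stomatal closure under abscisic acid, gave 0.32, 0.19 and 0.45, a mean of 0.32 ± 0.13 (limma adjusted p = 0.102). The median of the 12 means was 0.20, close to the 0.19 of the CPKs and above the 0.024 of all loci. On replicates 1, 2 and 3 the medians of the 12 were 0.33, 0.21 and 0.025.

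**Figure D4:**
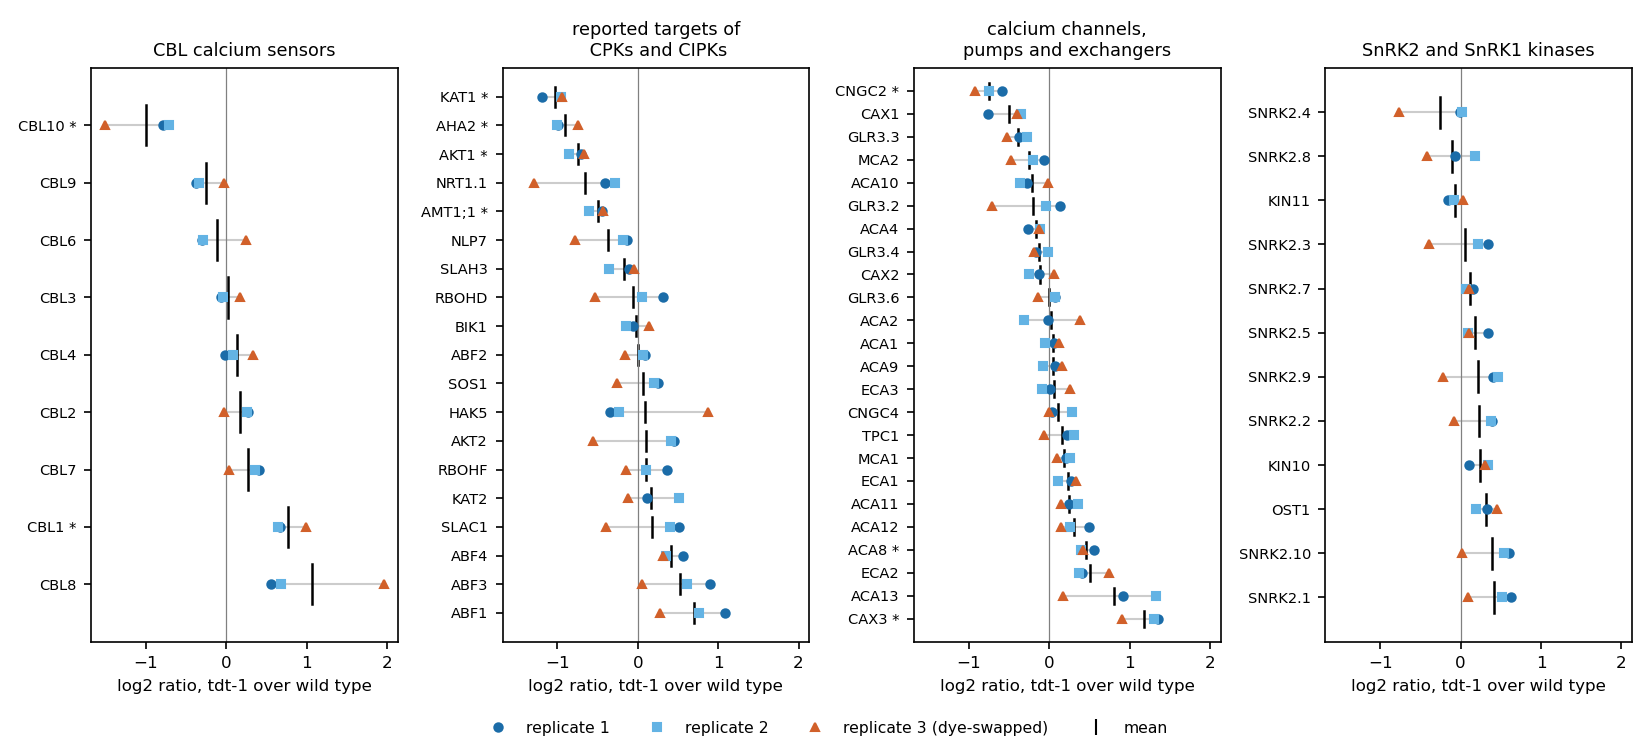
Log2 ratio of tdt-1 over wild type (horizontal axis) for the tested CBL sensors, reported kinase targets, calcium transport genes and SnRK kinases, 1 point per array and a bar at the mean. Asterisks mark the genes past the test. CBL1 and CAX3 lie above 0 and CBL10, KAT1, AHA2, AKT1 and CNGC2 below it on all 3 arrays, and no SnRK kinase is marked.

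The tissue label was read against marker lists. All 7 root markers and all 6 shoot markers were above background in at least 1 genotype on every array, as were 2 of 4 seed storage markers and none of the 2 pollen markers. None of the root or seed markers passed the limma test, with 1 and 0 of them at an unadjusted p under 0.05. The root markers had medians of −0.19, −0.26 and −0.0058 on the 3 arrays. CRA1, a seed storage protein, read 1.21, −0.02 and 3.50, and its SD of 1.78 was larger than the 1.25 of CIPK20, the member with the largest.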

How the data were processed

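The 3 arrays were scanned and read with Agilent Feature Extraction 8.5.1.1 (replicates 1 and 2) and 9.1.3.1 (replicate 3), per the file headers. Spot intensity values are the deposited scanner signals, with mean and background intensity per channel. The scanner's log10 ratios of red over green were also deposited, as processed by the software per the file headers. A series table of log2 ratios was deposited by the authors as well, and its direction matched the tdt-1 over wild type scanner ratios on every array.

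Intensities were background-corrected with normexp (offset 50) and normalized within arrays by loess in limma 3.58.1 (R 4.3.3), control spots having weight 0. Replicate 3 had its sign turned, non-uniform outlier spots (16, 11 and 81) were dropped, and spots of 1 probe were averaged. Loci above background in tdt-1 or in wild type on all 3 arrays were tested with lmFit and eBayes against 0, with Benjamini-Hochberg adjustment. The arrays are labelled as biological replicates, and each array pairs the genotypes. The fit was tested on simulated data.

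Members and gene lists were chosen with earlier results of these data known. Lists covered CBL sensors, kinase targets, calcium transport, SnRK kinases and markers of root, shoot, seed and pollen. Named with full statistics were members past the test, the 4 others with the largest mean, the 3 with the largest SD, and from each list up to 4 past the test or else 1. Other members are named to describe each family, and CPK26 and CRK1 as nearest the threshold. Symbols were checked against a reference table (TAIR10.1), and CPK-related kinases without a numbered name there are given by locus. Which genome build the probes were designed on is not stated, and no coordinates are used. Alternatives changed the background correction, normalization, source of the ratios, filter, probe rule, variance model and arrays used.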

Additional observations from a re-analysis of the deposited data

How the results depend on the processing

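All 7 member calls kept their direction under the 15 alternatives run, while their number varied widely. Between 6 and 9 members (8.57% to 15.3% of those tested, beside 9.23% to 15.2% of all genes) were called under no background correction, subtracted background, the scanner ratios, the deposited series table, no filter, both genotypes above background, the mean of probes and an intensity trend. With a dye term 23 members passed as higher and 18 as lower, and 6941 and 6260 of all genes. With array weights the counts were 31 and 18, and 8170 and 6710 of all genes. With median centring, which moved the median of all genes to 0.10, limma called 0 members higher and 0 lower, and 1 and 0 of all genes. At an unadjusted p under 0.05 there were 10 members and 3635 of all genes. With replicates 1 and 2 averaged limma called 0 and 0 members, and 24 and 19 of all genes, with 8 members and 3731 of all genes unadjusted. Leaving out 1 replicate gave 0 to 30 members higher and 0 to 13 lower, and 66 to 7002 of all genes higher and 45 to 5463 lower, the low counts coming without replicate 1 (8 members unadjusted) or 2 (9 unadjusted). Of all genes, 3956 reached an unadjusted p under 0.05 without replicate 1 and 3637 without replicate 2. The cause of these differences between alternatives was not tested. AT3G49370 was also lost without background correction and without the filter (adjusted p = 0.0776 and 0.0502), and CPK11 with the scanner ratios (0.0526). Without background correction CBL10, ACA8 and AMT1;1 were lost (0.0713, 0.0542 and 0.0507), and ACA8 and AMT1;1 also with subtracted background (0.0526 and 0.0616) and the scanner ratios (0.0582 and 0.0635). CBL1, CAX3, CNGC2, KAT1, AHA2 and AKT1 each lost their call under 4 of the 15 alternatives. Those were median centring, replicates 1 and 2 averaged, and leaving out replicate 1 or replicate 2. The CNGC2 mean was −0.42 with median centring.

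The CPK median, 0.19, was 0.29 with median centring, 0.13 without the filter, 0.13 with a dye term and 0.13 with replicates 1 and 2 averaged, and it ran from 0.12 to 0.21 with 1 replicate left out. The member median then ran from 0.061 to 0.16 and the CIPK median from 0.062 to 0.17. CIPK15 changed sign with median centring (0.079), and with 1 replicate left out it ran from −0.47 to 0.10. CIPK20 then ran from −1.09 to 0.0038. Among the fits with 1 replicate left out, CIPK15 and CIPK20 were positive only without replicate 3. A random block for scan day was not run, because 3 arrays gave no estimate of its correlation. Each array pairs the genotypes, so every fit of the ratios is already a paired one. For 8 of the 70 members the signal was too near background to be tested, except without the filter.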
